A study of Mus musculus with 32 samples.

Results

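The 43 genes described here are nephron genes, chosen by name from a list and found by their symbols among the 25059 genes of the files. Of these, 24 are used by the proximal tubule and 15 by later segments: 4 by the thick ascending limb, 4 by the distal convoluted tubule, 5 by principal cells of the collecting duct and 2 by intercalated cells. The remaining 4 belong to no tubule transport list. They are the podocyte genes Nphs1 and Podxl, the co-receptor gene Kl, and Slc4a1ap, which encodes kanadaptin and is not a transporter despite its symbol.

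The nephron filters blood at the glomerulus and then recovers most of the filtrate along a tube of specialised epithelia. The proximal tubule takes back glucose, amino acids, phosphate, bicarbonate and filtered protein, and its basolateral organic anion carriers secrete drugs. The thick ascending limb, distal convoluted tubule and collecting duct then adjust salt, calcium, magnesium, acid and water. Cisplatin is a platinum drug that crosslinks neighbouring guanines in DNA, it is known for injuring the kidney, and its adducts are removed by nucleotide excision repair. When RNA polymerase stalls at an adduct in the transcribed strand (TS), repair of that strand is started by the stalled polymerase, whereas the non-transcribed strand (NTS) depends on recognition across the whole genome.

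Kidney, liver, lung and spleen of wild-type C57BL/6J female mice, 6 to 7 months old, were assayed. Cisplatin was given intraperitoneally at 10 mg per kg at Zeitgeber time 1, control mice received 154 mM saline, and tissue was taken at Zeitgeber time 5. One label gives 2 h of treatment and the protocol gives 4 h. RNA-seq covered 2 control and 2 cisplatin libraries per organ. Damage-seq, which reads adducts still present, and XR-seq, which reads the short oligomers cut out during repair, covered 2 cisplatin-treated libraries per organ and had no untreated counterpart. The labels of the lung and spleen RNA-seq libraries are those corrected by the submitters, who exchanged control and cisplatin. The replicates are described as biological, but no label ties a library to an animal, and the 2 controls of lung and of spleen differed by so little that each pair was counted as 1 sample. The p-values below therefore measure the spread between these samples, which may be technical. In whole organs, fewer cells of a type and less RNA per cell cannot be told apart.

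Reads on genes per library ranged from 15619474 to 162270280 in RNA-seq, from 10658675 to 59779770 in XR-seq and from 1571167 to 6441367 in Damage-seq. Kidney replicate 1 of XR-seq held no read for 6.38% of those genes for which replicate 2 held 20 or more TS reads, against 0.389% the other way round. For the NTS these shares were 14.7% and 0.354%. Among the members, Avpr2, Foxi1 and Nphs1 were such genes on the TS, and Miox, Slc34a3, Slc4a1ap and Umod on the NTS. Results that rest on this kidney library are given below with and without it. Spleen replicate 1 of XR-seq likewise held no TS read for 3.12% of genes, against 0.00683% the other way round. For the NTS its shares were 6.47% and 0.0403%. The members concerned in spleen were Foxi1 and Slc2a2 on the TS and Slc12a1 on the NTS. Lung replicate 1 held no TS read for Pvalb and Slc5a2, with a share of 0.550% against 0.190%. The RNA-seq libraries were not stranded, so a gene and an overlapping antisense gene cannot be told apart in RNA. For Slc5a2, Slc22a12, Slc7a7, Slc6a19, Slc2a2, Slc3a1, Dab2, Hnf4a, Scnn1b, Avpr2, Nphs1 and Slc4a1ap, which overlap a counted gene on the other strand, NTS reads include TS reads of that partner.

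In untreated organs nearly all members were higher in kidney than elsewhere. Levels are RPKM, that is scaled counts per library size (CPM) divided by the exon length in kilobases, so that genes can be compared with each other. Of the 24 proximal members, 24 passed the test for a higher level in kidney than in the mean of the other 3 organs, as did 14 of 15 distal and 3 of 4 other members, where 19.6% of the 19100 genes tested did. The test was edgeR's quasi-likelihood test of a log2 difference beyond 0.4, at an adjusted p of 0.05. The median log2 difference was 9.56 over the proximal and 9.64 over the distal members, against -0.09 over all genes tested. For 3 distal members an organ had no read, and with those at the limit of 3 reads the distal median was 8.87. Avpr2, the vasopressin receptor of the collecting duct, and Slc4a1ap were the members not called.

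**Figure D1:**
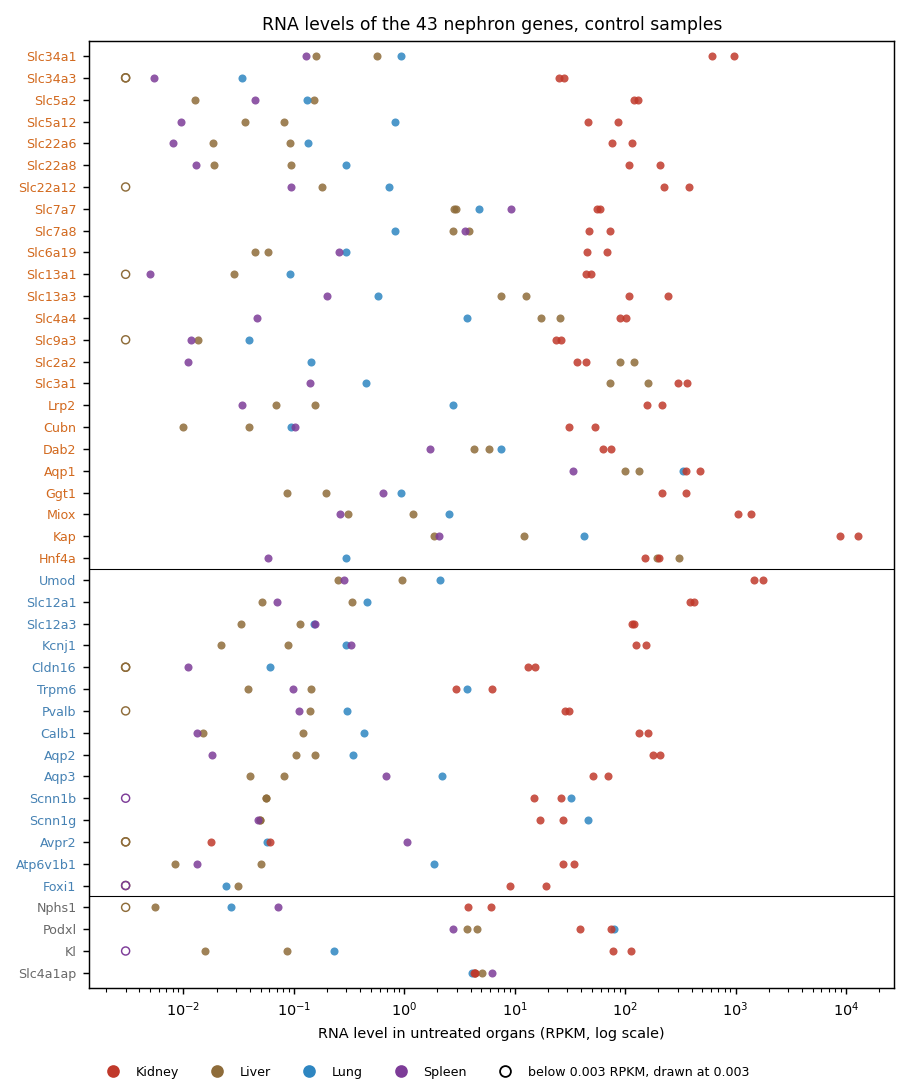
RNA levels of the 43 members in the control samples of the 4 organs, in RPKM on a log axis, 1 point per sample (2 for kidney and for liver, 1 summed sample for lung and for spleen), with members ordered by segment. Kap at 8852 and 12800 RPKM lies farthest to the right, and the kidney points stand clear of the other organs for most members, with Slc2a2, Scnn1b, Scnn1g, Podxl and Slc4a1ap as examples where another organ lies above them.

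Proximal members with the highest kidney levels were Kap, an androgen-regulated gene of the mouse tubule, at 12800 and 8852 RPKM in the 2 controls, and Miox, the first enzyme of inositol breakdown, at 1044 and 1380 RPKM. Slc34a1, the main phosphate carrier of the brush border, stood at 616 and 963 RPKM in kidney. In the other organs it stood at 0.562 and 0.158 RPKM in liver, 0.944 in lung and 0.129 in spleen. Its 2 kidney samples thus lay far above all others, with a log2 difference of 11.13 (SE 2.00, adjusted p = 0.00113). Slc22a6 and Slc22a8, which encode the basolateral organic anion carriers OAT1 and OAT3, stood at 75.7 and 117 RPKM and at 109 and 206 RPKM in kidney. Neither exceeded 0.299 RPKM in a control sample of another organ, and their log2 differences were 11.22 (SE 1.05) and 11.33 (SE 1.53). Lrp2 (megalin) and Cubn (cubilin), the receptors that take up filtered protein, stood at 158 and 216 RPKM and at 30.9 and 53.0 RPKM. Lrp2 reached 2.76 RPKM in lung, where Cubn stood at 0.0942.

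Among the distal members the thick limb genes were highest. Umod, which encodes the urinary protein uromodulin, stood at 1455 and 1790 RPKM in kidney and at 0.253 to 2.13 RPKM in the 4 other control samples. Slc12a1, the Na-K-2Cl cotransporter blocked by loop diuretics, stood at 389 and 422 RPKM. Slc12a3, the NaCl cotransporter of the distal convoluted tubule, stood at 115 and 121 RPKM, and Aqp2, the vasopressin-regulated water channel, at 177 and 206 RPKM. None of these 3 exceeded 0.463 RPKM in another organ. The lowest kidney levels of called distal members were those of Trpm6, a magnesium channel, at 2.92 and 6.29 RPKM, and of Foxi1, a transcription factor of intercalated cells, at 8.98 and 19.1 RPKM. The median over the 24 proximal members was 105 and 123 RPKM, and that over the 15 distal members was 30.8 and 34.4 RPKM.

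Some members were not called against every organ. Tested against each organ separately, a setting added after the data were seen, 31 of the 41 called members passed against all 3, where 5.57% of genes did. The 10 that did not were Aqp1, Hnf4a, Kap, Miox, Podxl, Scnn1b, Scnn1g, Slc2a2, Slc3a1 and Trpm6. For Kap and Miox the kidney level was 253 and 476 times that of lung, the highest other organ, and the difference from lung missed the threshold with a wide error (log2 7.98, SE 3.52, and 8.90, SE 3.22, adjusted p = 0.112 and 0.0571 in edgeR). For the other 8 the kidney level was 0.386 to 2.83 times that of the highest other organ. Slc2a2, the glucose carrier GLUT2, stood at 36.6 and 44.7 RPKM in kidney and at 90.8 and 120 RPKM in liver. Hnf4a, a transcription factor of both organs, stood at 152 and 204 RPKM in kidney and at 195 and 310 RPKM in liver. Both liver controls of Slc2a2 lay above kidney and the Hnf4a ranges overlapped, and neither difference passed the test (adjusted p = 0.227 and 0.799 in edgeR). Scnn1g and Scnn1b, subunits of the epithelial sodium channel, stood at 17.0 and 27.2 RPKM and at 15.0 and 26.1 RPKM in kidney, against 46.4 and 32.1 RPKM in lung. Scnn1g was called lower in kidney than in lung (log2 difference -1.07, SE 0.31, adjusted p = 0.0465), where 19.5% of genes were. Scnn1b was not (-0.64, SE 0.52, adjusted p = 0.457). Avpr2 had 4 and 3 reads in the kidney controls, at 0.0604 and 0.0178 RPKM, and was called lower than in spleen, where it stood at 1.06 RPKM and 23.9% of genes were lower in kidney. It overlaps Arhgap4 on the other strand.

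For 24 of the 43 members the level in every other organ was under 2% of that in kidney. Over these 24, the median level as a share of the kidney level ranged from 0.00649% to 0.232% between the libraries of the other organs. It was highest in liver cisplatin replicate 2, at 0.232%, and in the lung control, at 0.204%, while lung cisplatin replicates 1 and 2 stood at 0.0452% and 0.00670%. Changes of these members in liver, lung or spleen are therefore changes within traces, and how much of a trace comes from the organ itself was not tested.

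The promoters of all members with an entry, whatever their level elsewhere, were read for 1 motif, the GTTAAT core bound by the HNF1 factors of kidney and liver epithelia. GTTAAT or its reverse complement ATTAAC occurred within the 250 bases before the start in 7 of 21 proximal members in the RefSeq promoter table (33.3%) and in 1 of 14 distal members (7.14%). The share over all 27025 symbols of that table was 7.49%. The proximal members were Slc34a1, Slc22a6, Slc22a8, Slc7a7, Dab2, Miox and Hnf4a, and the distal member was Umod. Slc7a7, Dab2 and Hnf4a are not among the 24 members at traces elsewhere. The share is a description of these windows and says nothing of binding. The 100 bases around the match are shown for 3 proximal members and for Umod, all read 5′ to 3′ on the gene's strand with the motif in capitals, as the clearest instances next to the levels above. In build GRCm38.p6 they lie at chr19:8617893-8617992 on the plus strand for Slc22a6, chr19:8593054-8593153 on the plus strand for Slc22a8, chr13:55399540-55399639 on the plus strand for Slc34a1 and chr7:119479412-119479511 on the minus strand for Umod. The match lies 56 bases before the start in Slc22a6, 81 in Slc22a8 and 202 in Umod, and the 2 matches of Slc34a1 lie 61 and 89 bases before it. All 4 windows lie upstream of the RefSeq start. In the GENCODE M21 annotation those of Slc22a6 and Umod lie outside the gene, while those of Slc34a1 and Slc22a8 lie in an intron of longer coding transcripts, and that of Slc22a8 also in an exon of a retained-intron transcript.
Slc22a6: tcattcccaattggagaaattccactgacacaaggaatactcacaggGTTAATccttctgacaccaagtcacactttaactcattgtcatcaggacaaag
Slc22a8: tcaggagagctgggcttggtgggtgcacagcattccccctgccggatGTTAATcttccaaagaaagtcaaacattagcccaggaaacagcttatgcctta
Slc34a1: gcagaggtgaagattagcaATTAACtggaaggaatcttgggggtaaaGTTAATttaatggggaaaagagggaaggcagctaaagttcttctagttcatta
Umod: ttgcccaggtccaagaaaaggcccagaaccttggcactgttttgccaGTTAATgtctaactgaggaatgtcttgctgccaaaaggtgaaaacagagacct

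In kidney RNA at this time 1 member passed the test after cisplatin, a share near that of all genes. Of 42 members tested, 1 was called lower and 0 higher, where 2.65% of 15471 genes were called lower and 2.4% higher (edgeR's quasi-likelihood test of a change beyond 0.4 on the log2 scale, with 2 libraries per arm). Kcnj1, which encodes the potassium channel ROMK of the thick limb and collecting duct, was the member called. It stood at 126 and 156 RPKM in the controls and at 51.2 and 68.2 RPKM after cisplatin, so the arms did not overlap, and its log2 fold change was -1.24 (SE 0.21, adjusted p = 0.0426). The call was lost without kidney cisplatin replicate 1 (-1.07, adjusted p = 0.326), without cisplatin replicate 2 (-1.45, adjusted p = 0.0733) and in a fit of all organs together (-1.24, adjusted p = 0.437). Other settings called further members lower. Trpm6 was called in 7 of the 10 alternatives, DESeq2 included, as often as Kcnj1. Slc7a8, Slc4a4 and Kl were called with the replicate block, without a filter and in the test against 0, and Cubn in the first 2 of these. With the replicate block, 11 members were called lower. Over all genes, 1715 of 15471 were called lower with the replicate block, against 410 in the fit used here. Without a filter 1090 of 20750 genes were, and in the test against 0 it was 941 of 15471. Avpr2 had too few reads to be tested.

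Of the proximal members, 0 of 24 were called, and the median log2 fold change was -0.24, with 5 values above 0 and 19 below. For the distal members 1 of 14 was called, and the median was -0.44, with 2 above 0 and 12 below. The median of all genes tested was 0.00. At an unadjusted p under 0.05, 2937 genes of the whole table passed. In 21 members both cisplatin libraries lay below both controls, in 2 members (Nphs1 and Slc2a2) above, and in 19 the arms overlapped. Over all genes 28.5% had cisplatin libraries below and 27.7% above.

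**Figure D2:**
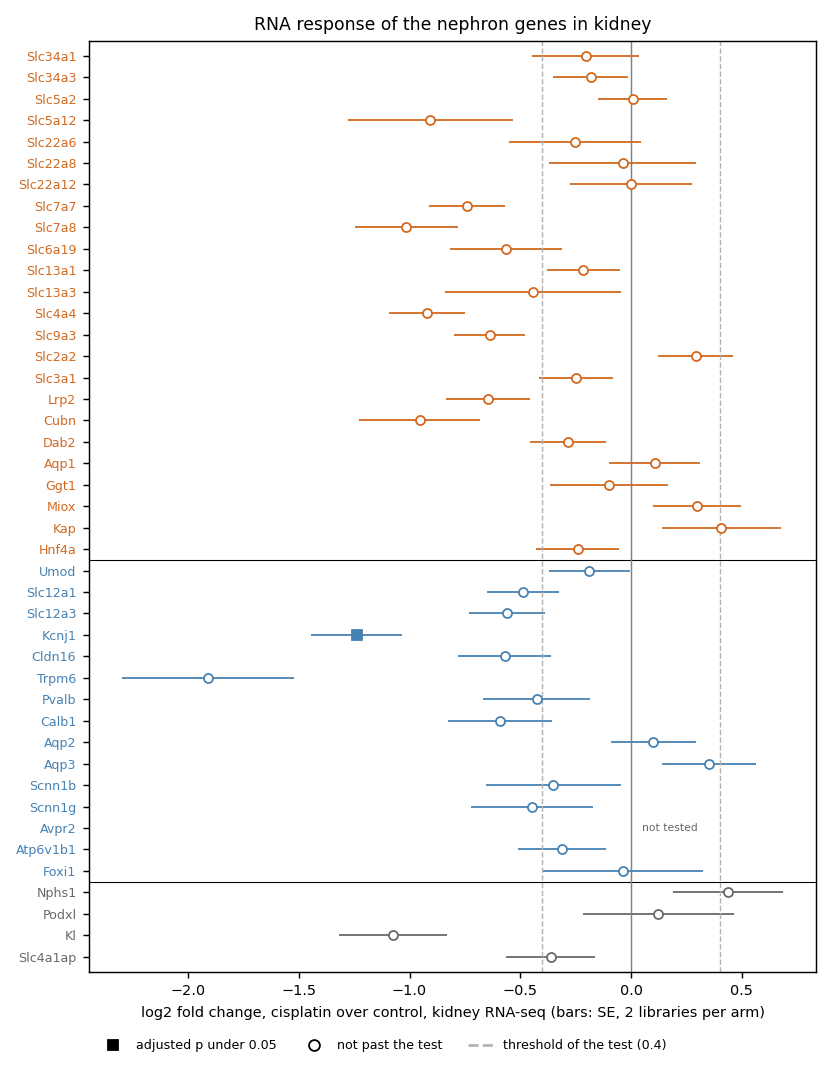
Log2 fold change of the members in kidney RNA-seq, cisplatin over control, with bars for the SE from 2 libraries per arm and members ordered by segment. Most points lie left of 0, from -1.91 for Trpm6 to 0.44 for Nphs1, and Kcnj1 at -1.24 is the called member.

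The proximal members with the largest negative values did not pass the test in the fit used here. Slc7a8, an exchanger of neutral amino acids, stood at 46.9 and 73.0 RPKM in controls and at 27.8 and 31.4 RPKM after cisplatin (log2 -1.01, SE 0.23, adjusted p = 0.106). Cubn stood at 30.9 and 53.0 against 19.1 and 24.1 RPKM (-0.95, SE 0.27, adjusted p = 0.183), and its co-receptor Lrp2 at 158 and 216 against 116 and 123 RPKM (-0.65, SE 0.19, adjusted p = 0.268). Slc4a4, which carries bicarbonate out of the cell towards blood, stood at 102 and 89.1 against 51.7 and 49.7 RPKM (-0.92, SE 0.17, adjusted p = 0.0725). In each of these genes the arms did not overlap. The carriers of drugs and phosphate differed less: Slc22a6 stood at 75.7 and 117 against 60.7 and 100 RPKM (-0.25, SE 0.30), Slc22a8 at 109 and 206 against 122 and 184 RPKM (-0.04, SE 0.33) and Slc34a1 at 616 and 963 against 608 and 759 RPKM (-0.20, SE 0.24). The adjusted p of these 3 genes was between 0.903 and 0.998, and their arms overlapped.

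Among distal members, Trpm6 stood at 2.92 and 6.29 RPKM in controls and at 0.989 and 1.44 RPKM after cisplatin (log2 -1.91, SE 0.39, adjusted p = 0.0568), from 517 and 2829 reads against 132 and 618. Slc12a3 stood at 115 and 121 against 72.0 and 88.1 RPKM (-0.56, SE 0.17, adjusted p = 0.344) and Slc12a1 at 389 and 422 against 271 and 307 RPKM (-0.49, SE 0.16, adjusted p = 0.462). Both had lower values in both cisplatin libraries without passing the test. Umod (-0.19, SE 0.18) overlapped between arms, and so did Aqp2, at 177 and 206 against 178 and 233 RPKM (0.10, SE 0.19). Kl, which encodes klotho, the co-receptor for the phosphate hormone FGF23 and a gene of distal and proximal tubule, stood at 78.3 and 113 against 38.2 and 52.7 RPKM (-1.07, SE 0.24, adjusted p = 0.0978).

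Summed levels of marker genes of other organs and cell types were compared between the kidney arms. They did not overlap for 4 of 10 lists. Among all single genes tested, 28.5% had cisplatin libraries below both controls and 27.7% above, so such gaps were common. The sums of 8 podocyte genes were 62.9 to 79.7 RPKM in controls and 86.1 to 96.6 RPKM after cisplatin. Those of 4 adrenal genes were 0.941 to 1.10 and 1.54 to 2.04 RPKM, with 2 of the adrenal genes at 0 after cisplatin. Those of 5 liver genes were 83.7 to 134 and 53.1 to 64.4 RPKM, and those of 5 spleen genes 2.66 to 4.35 and 1.79 to 2.01 RPKM. The lung, endothelial, immune, fibroblast, erythroid and adipocyte lists overlapped, the 6 immune genes at 18.3 to 28.0 and 25.1 to 27.7 RPKM. Nphs1 (nephrin), 1 of the 2 members with both cisplatin libraries above the controls, stood at 3.80 and 6.15 against 6.26 and 7.22 RPKM (log2 0.44, SE 0.25, adjusted p = 0.658). The other podocyte member, Podxl, overlapped between arms, at 39.0 and 74.6 against 48.4 and 74.9 RPKM. Of the 8 podocyte genes, the 3 of 100 kb or more had a median log2 fold change of -0.50, and the shorter ones had positive medians. The podocyte sum also reached 48.7 RPKM in the spleen control. The part of such cells in these values was not tested.

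The kidney response went with gene length. Across the 42 members tested, Spearman's rho between log2 fold change and length was -0.64, and across 15462 genes it was -0.44. Genes of a table share their libraries and are not independent replicates. The 15 members under 20 kb had a median of -0.04, against 0.21 over all 7189 genes of that length. The 22 members from 20 kb to under 100 kb had a median of -0.45, against -0.10 over all 6267 genes. The 5 members of 100 kb or more, Cubn, Lrp2, Slc4a4, Dab2 and Trpm6, had a median of -0.92, against -0.72 over 2006 genes. The members' median thus lay below that of all genes in each length class. The share of all genes called lower was 0.306%, 1.23% and 15.5% in the 3 classes, and 0 of the 5 long members passed the test. Kcnj1 is 26705 bases long. In the middle class the median was -0.35 over 12 proximal and -0.52 over 6 distal members.

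**Figure D3:**
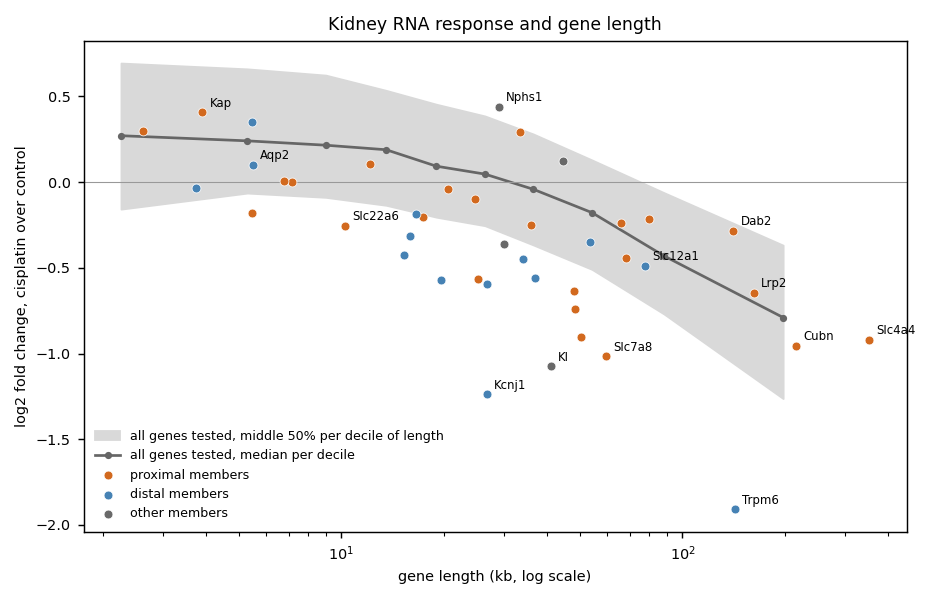
Log2 fold change in kidney RNA-seq against gene length in kb on a log axis, for the members tested by group and for all genes tested behind them. Members fall from about 0 under 20 kb to a median of -0.92 at 100 kb or more, along the slope of the other genes and somewhat below it.

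In the other organs 0 members were called after cisplatin, in a fit of the 8 groups together, where the shares of 19100 genes called higher and lower were 0.408% and 2.3% for liver, 0.0% and 0.366% for lung, and 0.12% and 0.0157% for spleen. At an unadjusted p under 0.05, 2521, 1416 and 577 genes of the whole table passed in liver, lung and spleen. Most members are at traces there, and their values scattered widely, from -4.45 to 5.48 in liver. In lung 22 of 24 proximal members had negative values, with a median of -1.76, in the organ whose control had the higher share of kidney RNA levels given above. The kidney and liver responses were compared by an interaction term, for which 0 members were called, while 0.0628% of genes were called with a higher and 0.0105% with a lower change in kidney and 1359 genes passed an unadjusted p under 0.05.

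Repair of the transcribed strand was higher in kidney for most members. The XR-seq level is CPM, with reads on the genes of both strands together as the library size, per 1000 GG dinucleotides of the strand, since cisplatin mainly joins neighbouring guanines. On the TS 34 of 42 members tested were called higher in kidney than in the mean of the other organs and 1 was called lower, where 15.5% of 19731 genes were called higher and 17.0% lower (edgeR quasi-likelihood test against 0). The count was 21 of 23 proximal members, with a median log2 difference of 3.67, and 12 of 15 distal members, with a median of 3.99. The median of all genes tested was 0.00. In 31 members both kidney libraries lay above all 6 others, which 16% of genes did, and in 0 members below, where 7.89% did.

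**Figure D4:**
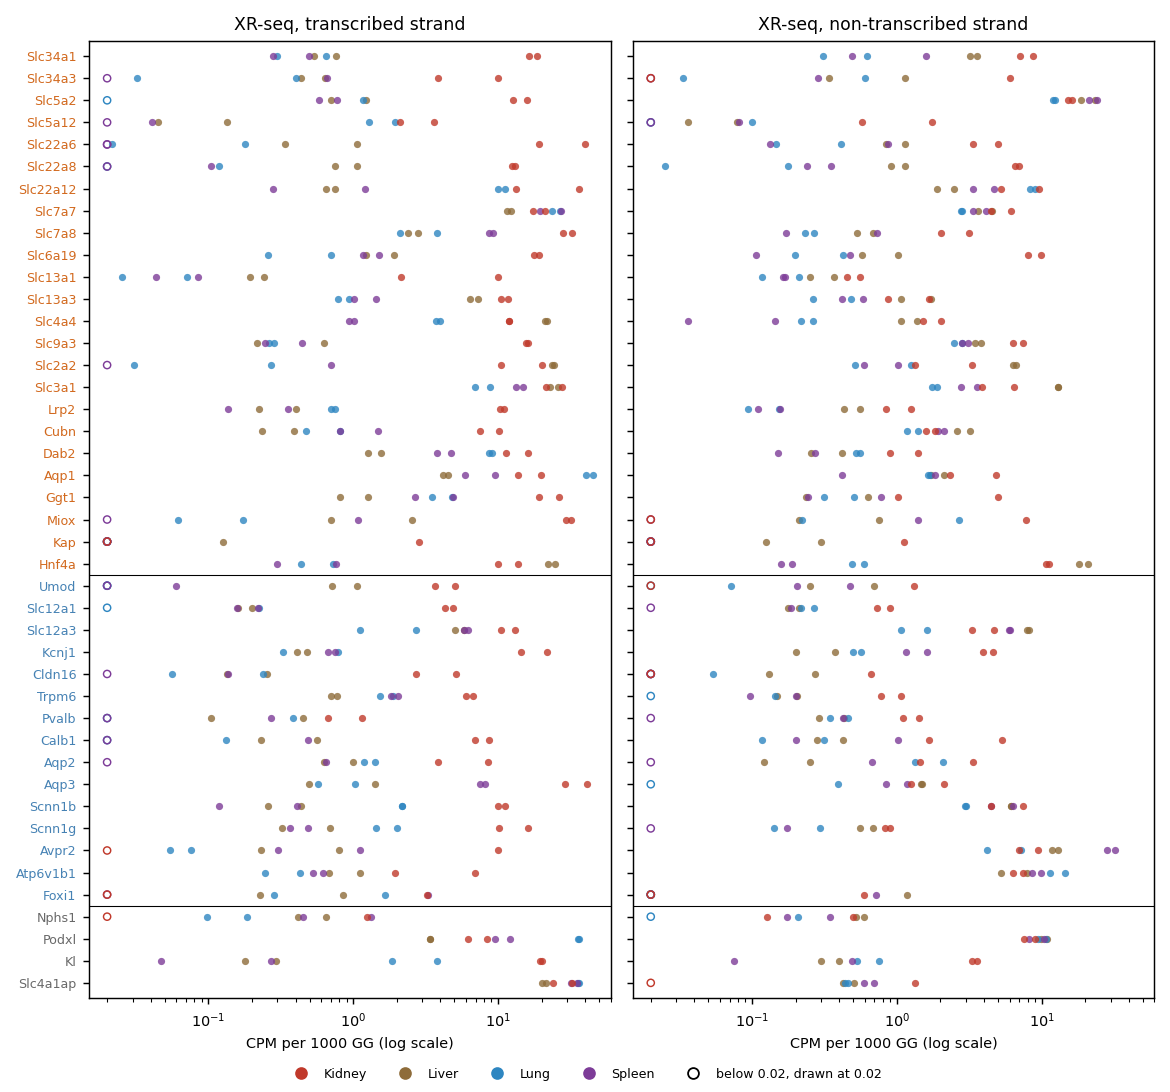
XR-seq levels of the members on the TS and on the NTS, in CPM per 1000 GG dinucleotides on a log axis, with 1 point per library, 2 libraries for each of 4 organs, and open circles for values below the axis. On the TS the kidney points stand apart to the right for 31 members, while on the NTS they overlap the other organs in 20 of the 40 members tested.

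Among the proximal members, Slc22a6 had TS levels of 39.6 and 19.1 in kidney. The liver libraries stood at 0.340 and 1.07 and the lung libraries at 0.0214 and 0.180, and no read came from spleen. Against the limit of 3 reads over both spleen libraries, its mean in kidney was at least 346-fold higher. Slc22a8 had 12.5 and 13.2 in kidney, and 1.07 and 0.753 in liver were its highest values elsewhere (log2 6.11, SE 0.54, adjusted p = 3.1e-06). Slc34a1 had 16.5 and 18.6 in kidney and 0.281 to 0.765 in the 6 other libraries (4.92, SE 0.36, adjusted p = 7.1e-07). Lrp2 had 10.4 and 11 against 0.137 to 0.752 (4.68, SE 0.25, adjusted p = 6.1e-08), and Cubn 10.1 and 7.45 against 0.236 to 1.48 (3.67, SE 0.25, adjusted p = 3.7e-07). In these 4 genes the kidney libraries stood above every other library. Slc13a1, a sulfate carrier, was higher by 5.95 (SE 0.54), Miox by 5.69 (SE 0.76) and Slc9a3, the sodium-proton exchanger NHE3, by 5.32 (SE 0.31). The 2 kidney libraries of Slc13a1 differed, at 2.15 and 9.98.

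Of the distal members, all 4 thick limb genes were called, with a median of 4.75. Umod had TS levels of 5.04 and 3.66 in kidney, from 89 and 98 reads. The liver libraries stood at 1.07 and 0.718 and the spleen libraries at 0 and 0.0601, and no read came from lung. Its mean in kidney was at least 142-fold that in lung at the limit of 3 reads. Kcnj1 had 21.8 and 14.4 in kidney and 0.329 to 0.782 elsewhere (4.82, SE 0.35, adjusted p = 6.0e-07), and Slc12a1 had 4.88 and 4.33 against 0.0173 to 0.225 (4.68, SE 0.57, adjusted p = 4.2e-05). Of the 4 distal convoluted tubule genes 3 were called. Calb1, a calcium-binding protein, was higher by 5.13 (SE 0.88), while Slc12a3 had 10.6 and 13.2 in kidney against 1.12 to 6.18 elsewhere, a log2 difference of 1.39 (SE 0.26, adjusted p = 0.00128). Of the 5 collecting duct genes 4 were called, among them Aqp2 with 3.88 and 8.55 against 0 to 1.41 (2.86, SE 0.89, adjusted p = 0.0265). The call of Aqp2 was lost in 5 of the 8 fits that left out 1 library. Kl, outside both groups, had 20.2 and 19.6 in kidney and 0.0473 to 3.76 elsewhere (5.38, SE 0.35, adjusted p = 2.6e-07).

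A few members did not show this pattern. Podxl (podocalyxin), found on podocytes and on endothelium, had TS levels of 6.24 and 8.41 in kidney and 35.8 and 36.3 in lung, and it was called lower (log2 -0.77, SE 0.15, adjusted p = 0.00171). Aqp1, a water channel of proximal tubule and capillaries, had 19.8 and 13.7 in kidney and 40.4 and 45.1 in lung (0.37, SE 0.24, adjusted p = 0.264). Slc7a7, a carrier of cationic amino acids, had 21.2 and 17.4 in kidney and 11.6 to 27.1 elsewhere (-0.17, SE 0.15, adjusted p = 0.424), although its RNA was called higher in kidney. Lung RNA of Podxl and Aqp1 was 78.6 and 336 RPKM, near the kidney levels of 39.0 and 74.6 RPKM and of 356 and 479 RPKM. Slc22a12, the urate carrier URAT1, had 13.3 and 36.2 in kidney and also 11.2 and 10.0 in lung, where its RNA stood at 0.727 RPKM, and Slc5a12, a lactate carrier, had 2.10 and 3.60 in kidney and 1.94 and 1.29 in lung. Hnf4a and Slc2a2 had higher TS levels in liver, at 22.2 and 24.9 and at 24.4 and 23.7, than in kidney, at 10.1 and 13.6 and at 10.5 and 20.1. Slc4a4, counted among the higher members, also had more in liver, at 21.6 and 21, than in kidney, at 11.9 in both libraries, although its RNA was 4.45 times as high in kidney as in liver. Against liver alone Slc4a4 (log2 -1.22, SE 0.10, adjusted p = 1.8e-06 in edgeR) and Hnf4a (-1.36, SE 0.28, adjusted p = 0.00181 in edgeR) were called lower in kidney, where 23.6% of genes were. Pvalb, Avpr2, Foxi1, Nphs1 and Slc4a1ap were not called, and Kap, with 0 and 15 reads in kidney, was not tested.

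Tested against each organ separately, 22 members were higher in kidney than in all 3 organs, 13 of them proximal and 8 distal, where 3.15% of genes were. Scnn1b and Scnn1g were among these 22, although their RNA levels in lung lay above those in kidney. Without kidney replicate 1, which held no reads for many genes, the 35 calls all remained and Avpr2 and Kap were added. Without kidney replicate 2, calls of Aqp2, Atp6v1b1 and Slc34a3 were lost and Nphs1 and Slc4a1ap were added, both lower.

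Within a kidney library the median TS repair of the proximal members was slightly above that of all genes, and that of the distal members was below it. The median TS level was 12.9 and 14.9 over the proximal members, 5.04 and 8.55 over the distal members, and 12.0 and 11.6 over the 21720 genes that had 20 or more reads. In the 6 libraries of the other organs the medians of both lists lay between 0.303 and 1.24, while the median of all genes there lay between 9.78 and 12.3. Across the members the order of TS levels in kidney followed RNA levels loosely, with a Spearman rho of 0.26 over 43 members, against 0.62 over 15460 genes. These points share libraries and carry no p.

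The NTS showed smaller differences. Of 40 members tested, 11 were called higher and 4 lower in kidney, where 5.62% of 19408 genes were called higher and 7.27% lower. The median log2 difference was 1.70 over 23 proximal and 1.39 over 13 distal members, against -0.08 over all genes tested. Slc22a8 had NTS levels of 6.52 and 6.98 in kidney and 0.0251 to 1.14 elsewhere (3.92, SE 0.55, adjusted p = 0.00173). Kl had 3.32 and 3.60 against 0.0756 to 0.748 (2.63, SE 0.56, adjusted p = 0.013), and Kcnj1 3.91 and 4.59 against 0.200 to 1.61 (2.29, SE 0.42, adjusted p = 0.00607). In these 3 genes both kidney libraries lay above the 6 others, as they did in 20 of the 40 members, where 19.9% of genes did. Cubn went the other way, with 1.83 and 1.60 in kidney and 1.17 to 3.22 elsewhere (-0.74, SE 0.16, adjusted p = 0.014). The other called members were Slc34a1, Lrp2, Slc4a4, Slc6a19, Slc7a8, Slc9a3, Hnf4a and Trpm6, all higher, and Slc5a2, Podxl and Atp6v1b1, all lower. Of these, Slc6a19, Hnf4a and Slc5a2 overlap a counted gene on the other strand, so their NTS reads include TS reads of that partner. Tested against each organ separately, the call of Slc6a19 alone held, where 155 of 19408 genes were called higher. With reads on genes as the library size, which moved the median of all genes from -0.08 to 0.46, 0 members were called lower. Without kidney replicate 1 the calls of Slc5a2 and Slc9a3 were lost and Dab2 and Ggt1 were added. Without kidney replicate 2, which left replicate 1 alone, the median log2 difference over all genes moved to -0.39.

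The strand ratio of repair was compared directly by a strand term for each organ. For 6 of 42 members the TS share of repair was higher in kidney than in the mean of the other organs, and for 0 it was lower, where 1.45% of 20759 genes were called higher and 4.93% lower. They were the proximal genes Slc9a3 (log2 difference 4.42, SE 0.54, adjusted p = 0.00757), Cubn (4.07, SE 0.42, adjusted p = 0.00459) and Lrp2 (2.54, SE 0.55, adjusted p = 0.037), and the distal genes Scnn1b (3.95, SE 0.50, adjusted p = 0.00815), Atp6v1b1, a subunit of the proton pump of intercalated cells (3.18, SE 0.76, adjusted p = 0.0493), and Slc12a3 (1.64, SE 0.39, adjusted p = 0.0469). The median was 1.91 over proximal and 2.22 over distal members, against -0.23 over all genes. Of the called members, Scnn1b overlaps a counted gene on the other strand, whose TS reads are among its NTS reads. The count of called members depended on single libraries, and so did the count over all genes. The range for members is given below. The median over all genes was -0.19 without kidney replicate 2. It was -0.20 without liver replicate 1 and -0.25 without liver replicate 2. Without kidney replicate 1, Lrp2 and Slc12a3 were lost and Avpr2 and Slc13a1 were added.

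The relative levels of remaining adducts differed far less between organs than those of repair did. On the TS of Damage-seq, 12 of 42 members tested were called lower in kidney than in the mean of the other organs and 1 higher, where 12.9% of 19759 genes were called lower and 16.7% higher. The median log2 difference was -0.23 over 23 proximal and -0.10 over 15 distal members, against 0.06 over all genes tested. Both kidney libraries lay below the 6 others in 9 members and above them in 3, where 8.37% and 21.8% of genes did. Each level below is again CPM per 1000 GG of the strand. Levels and tests of both assays are relative to the reads of a library. They do not measure the total of adducts or of repair in an organ.

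The called proximal members that were lower carry sulfate, lactate, organic anions, protons and protein. Slc13a1 had Damage-seq TS levels of 5.09 and 6.63 in kidney and 8.84 to 12.4 in the 6 other libraries (log2 -1.04, SE 0.16, adjusted p = 7.0e-08). Slc5a12 had 4.54 and 7.0 against 7.27 to 12.6 (-0.89, SE 0.20, adjusted p = 0.000234). Dab2, an adaptor of megalin uptake, had 6.73 and 6.39 against 7.71 to 10.7 (-0.75, SE 0.12, adjusted p = 2.4e-07). In all 3 the kidney libraries were the lowest of the 8. Lrp2 had 7.88 and 6.89 against 8.23 to 10.4 (-0.52, SE 0.11, adjusted p = 0.000103) and did not overlap, whereas Cubn had 6.75 and 7.50 against 7.50 to 11 (-0.65, SE 0.11, adjusted p = 1.0e-06), its higher kidney value lying next to that of liver replicate 2. Slc22a6 (-0.72, SE 0.26, adjusted p = 0.0257), from 40 and 45 kidney reads, Slc9a3 (-0.62, SE 0.16) and Slc4a4 (-0.29) completed the list. Slc4a4 had 7.27 and 7.47 in kidney, below lung and spleen at 8.55 to 9.79 but above liver at 6.28 and 6.49. Slc34a3, a second phosphate carrier, was higher, with 16 and 21 in kidney and 5.48 to 8.65 elsewhere (1.23, SE 0.30, adjusted p = 0.000583).

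Of the distal members, the thick limb genes Slc12a1 and Cldn16 and the magnesium channel Trpm6 were lower. Slc12a1 had 6.75 and 8.13 in kidney and 9.37 to 13.0 elsewhere (-0.67, SE 0.14, adjusted p = 0.000101). Cldn16, a tight junction protein for calcium and magnesium, had 5.16 and 7.66 against 7.93 to 12.8 (-0.82, SE 0.28, adjusted p = 0.0207), and Trpm6 had 7.77 and 8.32 against 8.73 to 11.1 (-0.47, SE 0.12, adjusted p = 0.000866). In all 3 the kidney libraries were the lowest. Kl was called lower (-0.46, SE 0.17, adjusted p = 0.0315). Umod (-0.10, SE 0.26), Kcnj1 (-0.26, SE 0.21), Aqp2 (-0.05, SE 0.35) and Slc12a3 (0.37, SE 0.15, adjusted p = 0.0571) were not called. Against each organ separately 4 of the 12 lower calls held, where 4.16% of genes passed all 3 tests, and without single libraries the number of lower calls was 8 to 12, the lowest without kidney replicate 1.

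On the NTS of Damage-seq 5 members were called higher and 2 lower, where 15.5% of 20262 genes were called higher and 11.4% lower. The higher members were Slc34a3 (log2 1.28, SE 0.24, adjusted p = 0.000105), Ggt1, a brush border enzyme that splits glutathione (0.80, SE 0.17, adjusted p = 0.000491), Slc22a12 (0.68), Slc6a19, a carrier of neutral amino acids (0.51), and Slc12a3 (0.57, SE 0.14, adjusted p = 0.00204). Slc5a12 (-0.47) and Trpm6 (-0.40, SE 0.12, adjusted p = 0.00839) were lower. Without kidney replicate 1 the Slc34a3 call alone remained. With reads on genes as the library size, 10 members were called higher, where 3949 of 20220 genes were. The median of all genes tested was then 0.098. Of the strand ratios of damage, that of Dab2 was called lower in kidney (-0.73, SE 0.13, adjusted p = 0.000124) and 0 of 43 were called higher, where 0.192% of 20845 genes were called lower and 2.43% higher.

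Some members with a higher relative level of TS repair in kidney had a lower relative level of TS adducts there. Among them the strand ratio of damage was called lower for Dab2 alone. Slc5a12 and Trpm6 were also called lower on the NTS of Damage-seq. Of the 33 members called higher in XR-seq TS and tested in both assays, 12 were called lower in Damage-seq TS (36.4%) and 1 higher. Over all genes 509 of 2825 were lower (18.0%). This count went with gene length. Of genes of 100 kb or more called higher in XR-seq TS, 302 of 459 were lower in Damage-seq TS (65.8%), and so were all 5 such members, Cubn, Dab2, Lrp2, Slc4a4 and Trpm6. Under 100 kb it was 7 of 28 members (25.0%) and 207 of 2363 genes (8.76%). The shares were 8 of 20 proximal (40.0%) and 3 of 12 distal members (25.0%), a difference of a few genes that was not tested. Slc4a4 is counted here, although its TS repair level was lower and its TS damage level higher in kidney than in liver.

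**Figure D5:**
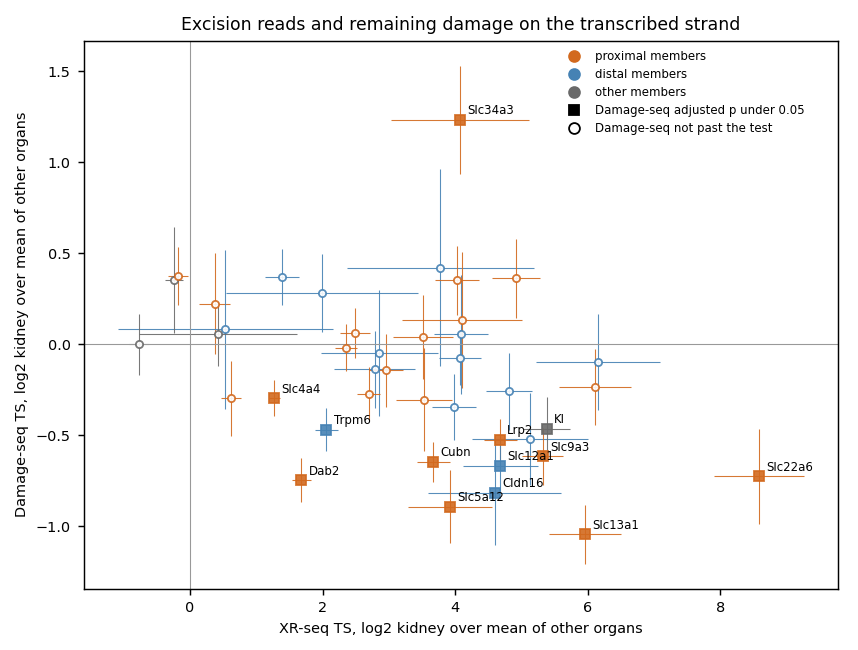
Log2 difference between kidney and the mean of the other organs in Damage-seq TS (vertical) against that in XR-seq TS (horizontal), for the members tested in both assays by group, with bars for the SE and squares for members called in Damage-seq. Members spread from -0.77 to 8.58 along the repair axis and from -1.04 to 1.23 along the damage axis, with 12 genes called higher in repair and lower in damage.

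Both lists had more GG dinucleotides per kb than the median gene. The median count on the TS was 66.6 per kb over the proximal and 68.2 over the distal members, against 58.5 over all genes, and the NTS values were 65.2, 64.2 and 60.7. The median gene length was 34.7 kb over the proximal, 19.6 kb over the distal members and 14.4 kb over all genes.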

How the data were processed

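The deposited values are whole counts of reads. For the 2 DNA assays the authors used cutadapt to trim, BWA to align (build mm10) and Picard to discard duplicates, required a mapping quality over 20 and GG at the adduct, and counted what fell on each strand of a gene. RNA counts were made by the authors with STAR and featureCounts. Versions are not given in the sources used here, and the batch adjustment of the study was not repeated, since no label names a batch.

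Of the files, 16 blank lines were dropped and 0 mitochondrial genes were found. Counts were fitted over all genes with edgeR 4.0.16 (TMM, filterByExpr, quasi-likelihood) and limma 3.58.1 in R 4.3.3, with Benjamini-Hochberg adjustment and calls at an adjusted p under 0.05. DESeq2 1.42.0 was an alternative. RNA contrasts were tested beyond a log2 fold change of 0.4 (glmTreat), the others against 0. RNA-seq pairs whose chi-square over degrees of freedom was 3 or less were summed (lung controls 2.75, spleen controls 2.98), which left 14 samples. Damage-seq pairs, at 1.43 to 3.11, were kept apart, a choice made after these values were seen. RPKM used TMM-scaled counts and exon lengths of GENCODE M21. Promoters came from RefSeq on GRCm38.p6, which held 38 of 43 members. The fits were checked on simulated data with a fixed spread and no loss of reads. That check does not cover libraries such as kidney replicate 1 of XR-seq. Tables and figures used Python 3.11.15, numpy 2.4.6, pandas 2.3.3 and scipy 1.17.1. Alternatives changed the tool, scaling, filter, samples, contrast or replicate block.

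The members and lists were chosen with earlier results of these data known. Full statistics are given for at most the 10 called members with the largest change per comparison, and for the members that set proximal against distal genes (Slc34a1, Lrp2, Cubn, Slc22a6, Slc22a8, Umod, Slc12a1, Slc12a3, Aqp2, Kl). A few further members were named after their values were seen: Slc7a8, Slc4a4, Trpm6, Kcnj1 and Nphs1 in the kidney response, the members shared with another organ, and those not called in XR-seq. Of other nephron genes, the 2 called genes of each list with the largest change are named. Intervals cover no error beyond the spread of the libraries, and a limit of 3 reads covers counting error only.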

Additional observations from a re-analysis of the deposited data

How the results depend on the processing

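Counts over all genes also moved between settings, so a change in the number of members called is not by itself particular to them. The number of untreated kidney calls was 41 under every setting but the separate test against each organ (31). The kidney RNA response gave 1 lower member, against 0 in the 8-group fit, 2 with DESeq2, 7 without a filter and 6 in the test against 0, and 0 to 5 without single libraries (0 without cisplatin replicate 1, 5 without control replicate 1, 4 without control replicate 2). The same-numbered kidney libraries deviated together (r = 0.473, with 0.388 in liver, 0.0592 in lung and 0.331 in spleen), but with 2 pairs they share only a number. The replicate block gave 11 lower members there, 3 higher XR-seq ratios, 2 higher Damage-seq TS levels and 3 lower Damage-seq ratios, and with 16 libraries counted separately 1 lower member in liver and 2 in lung. Without the block, 16 libraries also gave 1 and 2. Lower members numbered 1 in liver and 6 in lung without a filter and 1 in liver in the test against 0. Tested against each organ, calls in XR-seq fell to 22 higher and 0 lower on the TS and 1 and 0 on the NTS, and in Damage-seq to 0 higher and 4 lower on the TS and 2 and 0 on the NTS. Reads on genes as library size gave 0 lower members for XR-seq NTS, 5 higher for Damage-seq TS, and 10 higher and 1 lower for Damage-seq NTS. Over all genes that scaling called 546 of 19637 lower for XR-seq NTS and 5072 of 19797 higher for Damage-seq TS. For Damage-seq NTS it called 3949 of 20220 higher and 1644 lower. The study's gene filter gave 2 higher XR-seq ratios, 3 higher members for Damage-seq NTS and 0 lower Damage-seq ratios, which lost Dab2 as a gene over 100 kb. DESeq2 gave 3 higher and 1 lower for Damage-seq NTS, and no filter 2 lower Damage-seq ratios. Without single libraries, XR-seq calls ranged from 31 to 36 higher and 1 to 3 lower on the TS, 8 to 12 and 2 to 7 on the NTS, and 3 to 12 and 0 to 1 for the ratio. Damage-seq calls ranged from 1 to 3 higher and 8 to 12 lower on the TS, 1 to 9 and 0 to 4 on the NTS (0 lower without kidney replicate 1, 4 without spleen replicate 2), and 1 to 4 lower ratios (4 without lung replicate 1). Liver gained up to 1 higher member (without cisplatin replicate 1) and spleen up to 2 (without cisplatin replicate 2). Without single libraries, the log2 change in kidney ranged from -0.094 (without cisplatin replicate 2) to 0.26 for Aqp2, and to a highest value without control replicate 2 for Slc13a3 (-0.91 to 0.23), Slc22a6 (-0.65 to 0.065), Slc22a8 (-0.42 to 0.46) and Slc34a1 (-0.48 to 0.13). Without cisplatin replicate 1 it was 0.043 for Slc22a6 and 0.21 for Slc22a8. The cause was not tested. Damage-seq is the shallowest assay, and short members such as Miox, with 8 and 12 kidney TS reads, could not show a small difference.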

Other observations

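Other genes of the nephron, from lists written with the members, were counted in the same way. In kidney RNA after cisplatin, 6 of 31 other distal genes were called lower and 0 higher, with a median log2 fold change of -0.38, where 2.65% of genes were called lower. They were Bsnd, Casr, Klhl3, Nedd4l, Nr3c2 and Slc8a1. The last 4 are 113 to 365 kb long and were among 7 other distal genes of 100 kb or more, a length at which 15.5% of all genes were called lower. Casr, at 68.4 kb, was 1 of 12 in the class from 20 to under 100 kb (1.23% of all genes), and Bsnd, at 8.83 kb, 1 of 12 under 20 kb (0.306%). Klhl3, which encodes an adaptor that sends WNK kinases for degradation and so restrains the NaCl cotransporter, fell by 2.78 on the log2 scale (SE 0.26, edgeR adjusted p = 0.00804). Nr3c2, the mineralocorticoid receptor through which aldosterone acts, fell by 1.99 (SE 0.23, edgeR adjusted p = 0.0152). Of 37 other proximal genes 0 were called, with 4 values above 0, 33 below and a median of -0.29, and of 8 podocyte genes 0 were called, with a median of 0.26. Whether the lists differ from each other was not tested.

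In XR-seq TS, 29 of 36 other proximal genes were called higher in kidney and 1 lower, with a median log2 difference of 2.87, and 15 of 32 other distal genes were higher and 2 lower, with a median of 1.25, where 15.5% and 17.0% of all genes were. The largest were Slco1a6, an organic anion carrier (7.19, SE 0.54), Slc6a18, an amino acid carrier (6.26, SE 0.55), Bsnd, the barttin subunit of the kidney chloride channels (6.62, SE 0.56), and Fxyd2, a subunit of the sodium pump (5.66, SE 0.34). Of the 8 podocyte genes 3 were higher, led by Magi2 (1.56, SE 0.13), and 2 lower (25.0%, against 17.0% of all genes), led by Plce1 (-1.67, SE 0.10). In Damage-seq TS, 12 of 38 other proximal genes were lower in kidney and 3 higher, and 8 of 32 other distal genes were lower and 2 higher, where 12.9% and 16.7% of all genes were. Over the 14 RNA-seq samples, the genes outside the list whose log2 CPM was most like the mean of the proximal members were ccdc198, Gpx6 and Acsm2 (Pearson's r = 0.995, 0.993 and 0.993). For the distal members they were D630029K05Rik, Tmem213 and Ppp1r1a (r = 0.996 each). These coefficients mostly separate kidney from the other organs, with 4 kidney samples among the 14.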
